A study of Bos taurus with 4 samples.

Results

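ABCG2 and SPP1 are neighbouring genes of bovine chromosome 6, in a region known for its association with milk composition in dairy cattle. They are 2 of the 24616 gene rows in the deposited table, and they were chosen by identifier, ENSBTAG00000017704 for ABCG2 and ENSBTAG00000005260 for SPP1. The table lists identifiers without gene names, so the pairing of name and identifier comes from the choice of genes and could not be checked against the table. RNA sequencing libraries with read pairs of 150 bp were made from Holstein cattle (written "Hostein" in the labels). There were 2 libraries of mammary tissue, both from females, and 2 of lymphocytes, both from males. Tissue and sex therefore cannot be told apart, and the labels name no treatment, age or stage of lactation. Both mammary titles carry "dup", an unexplained tag that is absent from the lymphocyte titles. Each title carries its own number, but no label states that replicates are separate animals. The p-values then measure only the spread between libraries, which may be technical.

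ABCG2 encodes a transporter of the ATP-binding cassette family, also called breast cancer resistance protein. It sits in the apical membrane of the secretory epithelium, where it moves riboflavin and many drugs and toxins into milk, and it is known to be induced in the lactating gland. SPP1 encodes osteopontin, a secreted and heavily phosphorylated glycoprotein that binds integrins and CD44. Osteopontin is abundant in milk and in bone matrix, and activated macrophages and T cells can also make it. In the RefSeq annotation of a later assembly, ARS-UCD2.0, 6 annotated genes lie between ABCG2 and SPP1. Of these, 2 are protein-coding: PKD2, which encodes the cation channel polycystin-2, and a model without a gene symbol. PPM1K, encoding a mitochondrial protein phosphatase, flanks ABCG2 on the outer side, and MEPE, encoding another bone matrix phosphoglycoprotein, is the next protein-coding gene beyond SPP1. Of the table's identifiers, 0 could be matched to that annotation, which lists no Ensembl identifiers, so no values are given for these neighbours.

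The values are FPKM, fragments scaled to transcript length and library size, so levels of both genes in a library can be set side by side. FPKM keeps no read count, and the absolute depth of the libraries is unknown. Between 15844 and 17953 rows were above 0 in a library. Because rows could not be named, the labelled tissues could not be checked against epithelial, macrophage or lymphocyte marker genes. In bulk samples, fewer cells of a type and less RNA per cell cannot be told apart.

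Both genes were higher in mammary tissue than in lymphocytes in every library, but with different patterns. SPP1 was among the most highly expressed rows of both mammary libraries and was at or near 0 in both lymphocyte libraries. ABCG2 was low but present in lymphocytes, moderate in mammary replicate 1 and high in mammary replicate 2. For neither gene did the libraries of the tissues overlap. The same absence of overlap, with mammary tissue higher, was seen in 13.7% of the 12311 rows that reached 1 FPKM or more in at least 2 libraries. By limma's moderated test over those rows, both genes passed an adjusted p of 0.05 and were higher in mammary tissue, against 8.54% of all rows tested. Only SPP1 kept that call after the libraries were rescaled by the median of ratios.

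**Figure D1:**
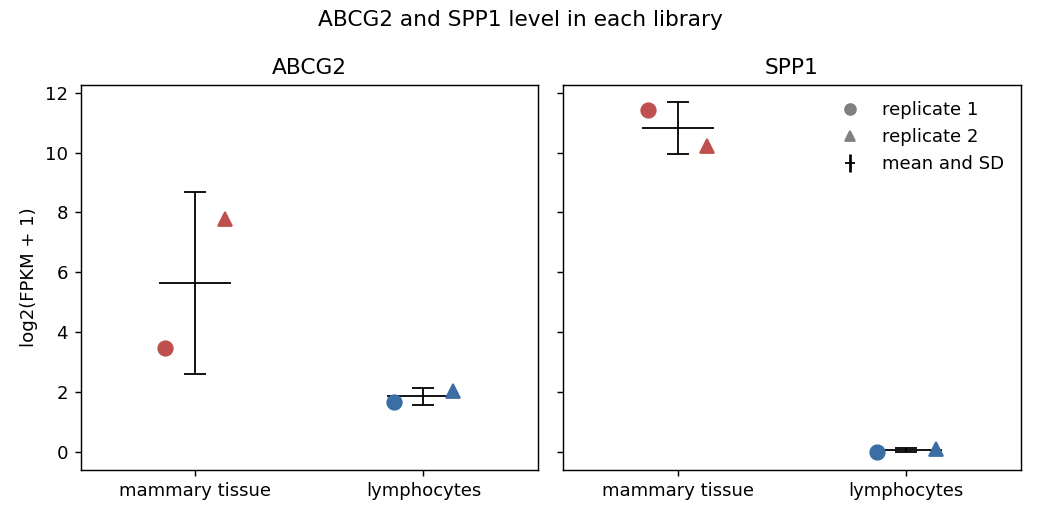
Level of each gene as log2(FPKM + 1) on the vertical axis for the 2 mammary and 2 lymphocyte libraries; circles are replicate 1, triangles replicate 2, and the black bars the mean and SD (n = 2). The SPP1 points of the tissues are far apart with close replicates, whereas the ABCG2 mammary points lie at 3.48 and 7.79.

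SPP1 was at 2757 FPKM in mammary replicate 1 and at 1190 FPKM in mammary replicate 2. It was listed at 0 in lymphocyte replicate 1 and stood at 0.0717 FPKM in lymphocyte replicate 2. Both mammary libraries were thus high and both lymphocyte libraries at or near 0, and the means were 1974 ± 1108 FPKM and 0.0358 ± 0.0507 FPKM (SD, n = 2 each). In the ranking of all rows of a library, SPP1 was the 24th highest in mammary replicate 1 and the 38th highest in mammary replicate 2. It held 0.179% and 0.0859% of the summed FPKM of these libraries. In lymphocyte replicate 2 its value exceeded 7.62% of the rows above 0, near the bottom of the measured range. The zero of lymphocyte replicate 1 was written in the table's short form, with 1 decimal, which 6492 zeros of that library share. What sets this form apart is not given, and an exact 0 can be a failed estimate. Of the rows with this form in lymphocyte replicate 1, 388 were above 0 in lymphocyte replicate 2, with a median there of 0.0501 FPKM and an upper quartile of 0.108 FPKM. The SPP1 value in lymphocyte replicate 2 lay between those figures.

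On the log2(FPKM + 1) scale the SPP1 difference between mammary tissue and lymphocytes was 10.77 (SE 0.88, 95% interval 9.06 to 12.49, limma adjusted p = 6.3e-31). This was the 4th largest difference toward mammary tissue among the 12311 rows tested. Because the lymphocyte values were at or near 0, its size was set largely by the FPKM added before the log. The SPP1 difference was 13.75 with 0.1 FPKM added and 8.49 with 5 FPKM added, both outside that interval. SPP1 met the filter of 1 FPKM through its mammary libraries alone; with no filter its limma adjusted p was 0.023. The very small p rests on a pooled spread, since limma gave each row the spread typical of its level and not its own. SPP1's own residual SD was 0.61, below the 0.88 used in its test. The smallest distance between any mammary and any lymphocyte library was 10.12 for SPP1, the largest of all tested rows. A count by level used the same values again, so it is a description and no further support. Both mammary libraries held 32 rows in common at 1000 FPKM or more, of which 29 reached 10 FPKM in each lymphocyte library and 1 lay below 1 FPKM in each. That row was SPP1. With the mammary minimum set to 100 FPKM there were 210 rows, of which 6 lay below 1 FPKM in each lymphocyte library.

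ABCG2 was at 10.1 FPKM in mammary replicate 1 and at 219.6 FPKM in mammary replicate 2. In lymphocyte replicates 1 and 2 it was at 2.14 and 3.11 FPKM. The lymphocyte libraries were both low and close together, and the mammary libraries were both higher but far apart, at 115 ± 148 FPKM against 2.63 ± 0.68 FPKM (SD, n = 2 each). The lower mammary value was 3.27 times the higher lymphocyte value, and the higher mammary value was 21.6 times the lower one. Within its libraries, ABCG2 was the 4437th highest row in mammary replicate 1 and the 146th highest in mammary replicate 2. That placed it above 75.3% and 99.1% of the rows above 0. In lymphocyte replicates 1 and 2 it lay above 39.4% and 42.1% of the rows above 0, so the transporter's transcript was measured there at a level below the middle of the range.

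The ABCG2 difference was 3.79 on the log2(FPKM + 1) scale (SE 0.86, 95% interval 2.10 to 5.47, limma adjusted p = 0.00021), the 187th largest toward mammary tissue. This call depended on the pooled spread, and the size of the difference on which mammary library was used. ABCG2's own residual SD was 2.16, larger than the 0.86 used in its test. With each row's own spread and no moderation, the interval ran from -5.52 to 13.09 and the limma adjusted p was 0.43; in that fit 4 rows of the table were called, 0.0325% of those tested, and SPP1 had a limma adjusted p of 0.31 with an interval of 8.16 to 13.39. Without mammary replicate 2 the ABCG2 difference fell to 1.63, and without mammary replicate 1 it was 5.94. Without lymphocyte replicate 1 or 2 it was 3.59 or 3.98. In each of these fits the lone library of a tissue was assumed to vary like the other tissue's libraries, so only the differences are given here. For SPP1 they were 11.38 without mammary replicate 2 and 10.17 without mammary replicate 1. Without lymphocyte replicates 1 and 2 they were 10.72 and 10.82.

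**Figure D2:**
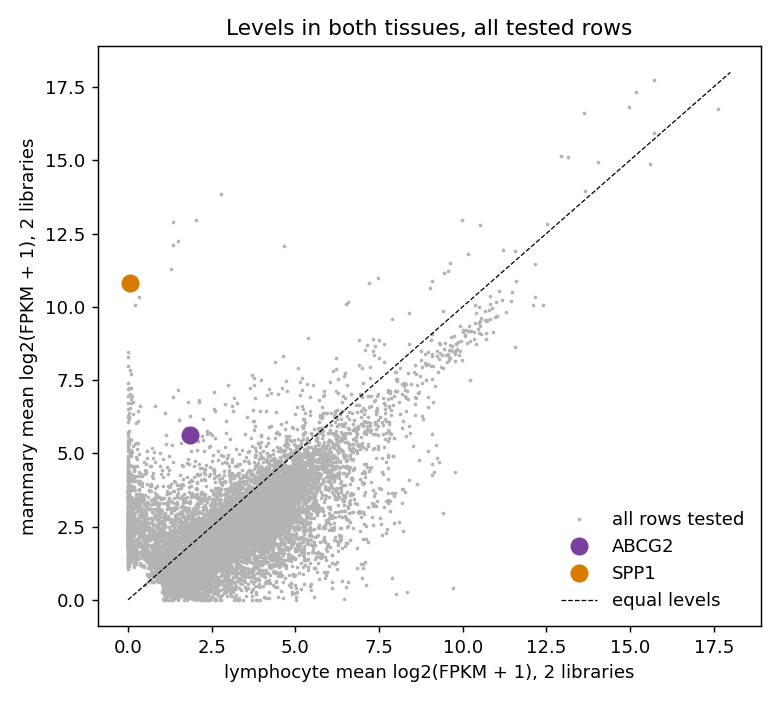
Mean log2(FPKM + 1) of the 2 lymphocyte libraries (horizontal axis) against that of the 2 mammary libraries (vertical axis) for the 12311 rows tested, in grey, with the dashed line marking equal levels. SPP1 lies at 0.05 and 10.82, at the left edge and above the grey rows with a similar lymphocyte level, and ABCG2 at 1.85 and 5.63, on the upper border of the main body of rows.

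The mammary libraries differed in the level of the typical row, and the genes stood differently to that shift. The summed FPKM of mammary replicates 1 and 2 were 1.54e+06 and 1.38e+06. Across the rows tested, the log2(FPKM + 1) value in mammary replicate 2 minus that in replicate 1 had a median of -1.05 and quartiles of -1.43 and -0.64. SPP1 moved with the bulk of rows: its value in mammary replicate 2 minus that in replicate 1 was -1.21, within those quartiles. ABCG2 moved against it, with a difference of 4.31, the 27th highest of the 12311 rows. Relative to the median row, ABCG2 was 41.0-fold higher in mammary replicate 2, and 0.219% of rows departed from the median row by at least as much in either direction. Between the lymphocyte libraries ABCG2 differed by 0.39, against 0.40 for the median row. The spread of ABCG2 was therefore one between the mammary libraries. Apart from a different number in each title, whose meaning is not given, nothing in the labels separates those libraries.

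**Figure D3:**
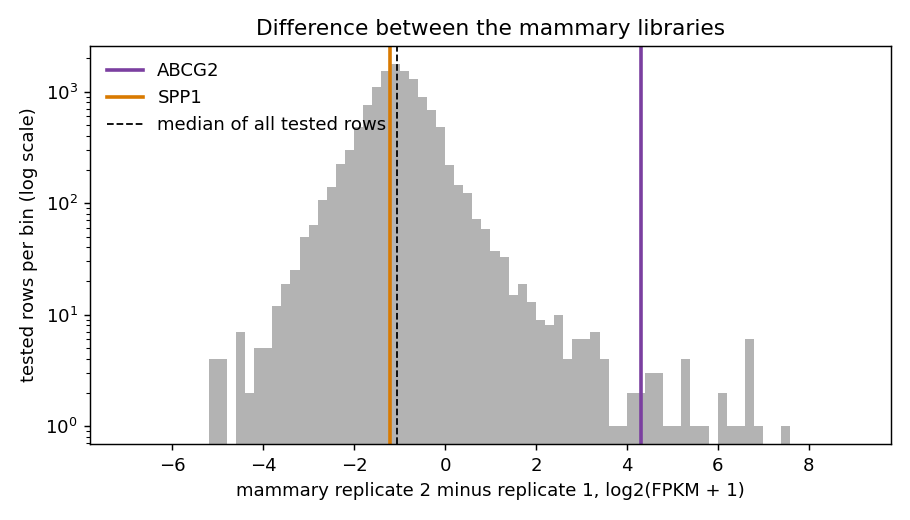
Histogram of the difference between mammary replicates 2 and 1 on the log2(FPKM + 1) scale for the 12311 rows tested, with the number of rows per bin on a log axis. The SPP1 line at -1.21 lies beside the median of all rows, dashed at -1.05, and the ABCG2 line at 4.31 lies in the sparse right tail.

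Rescaling the libraries by the median of ratios, which moves the median row's tissue difference from -0.81 to -0.02, brought the SPP1 mammary values together and the ABCG2 values further apart. SPP1 was then at 2435 and 2735 FPKM in mammary replicates 1 and 2, a ratio of 1.12. ABCG2 was at 8.96 and 504.8 FPKM, a ratio of 56.3. In lymphocyte replicates 1 and 2 the rescaled values of ABCG2 were 1.78 and 1.90 FPKM. Rescaling to a common FPKM total instead left SPP1 at 2115 and 1013 FPKM in mammary replicates 1 and 2. ABCG2 was at 7.79 and 186.9 FPKM in them, so how close the SPP1 replicates lay depended on the scaling. In the median-of-ratios fit a row's own spread enters its test, and 12.1% of rows were called higher in mammary tissue. SPP1 differed by 11.30 (SE 0.24, 95% interval 10.65 to 11.96, limma adjusted p = 0.0046) and had the smallest p of all rows. ABCG2 differed by 4.65 (SE 1.95, 95% interval -0.64 to 9.93) and did not pass, at a limma adjusted p of 0.16. Leaving out lymphocyte replicate 1 or 2 in this fit, where 0 rows of the table passed, also ended the SPP1 call, at differences of 11.27 and 11.33 (limma adjusted p = 0.089 and 0.076). By limma, 2807 and 2995 rows of those fits had an unadjusted p under 0.05. Leaving out a mammary library in turn gave an ABCG2 difference of 7.48 without replicate 1 and 1.81 without replicate 2. With 1 mammary library left, the residual SD of ABCG2 came from the lymphocyte pair alone and was 0.043. Those fits leave out the spread between the mammary libraries, so no call is drawn from them.

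**Figure D4:**
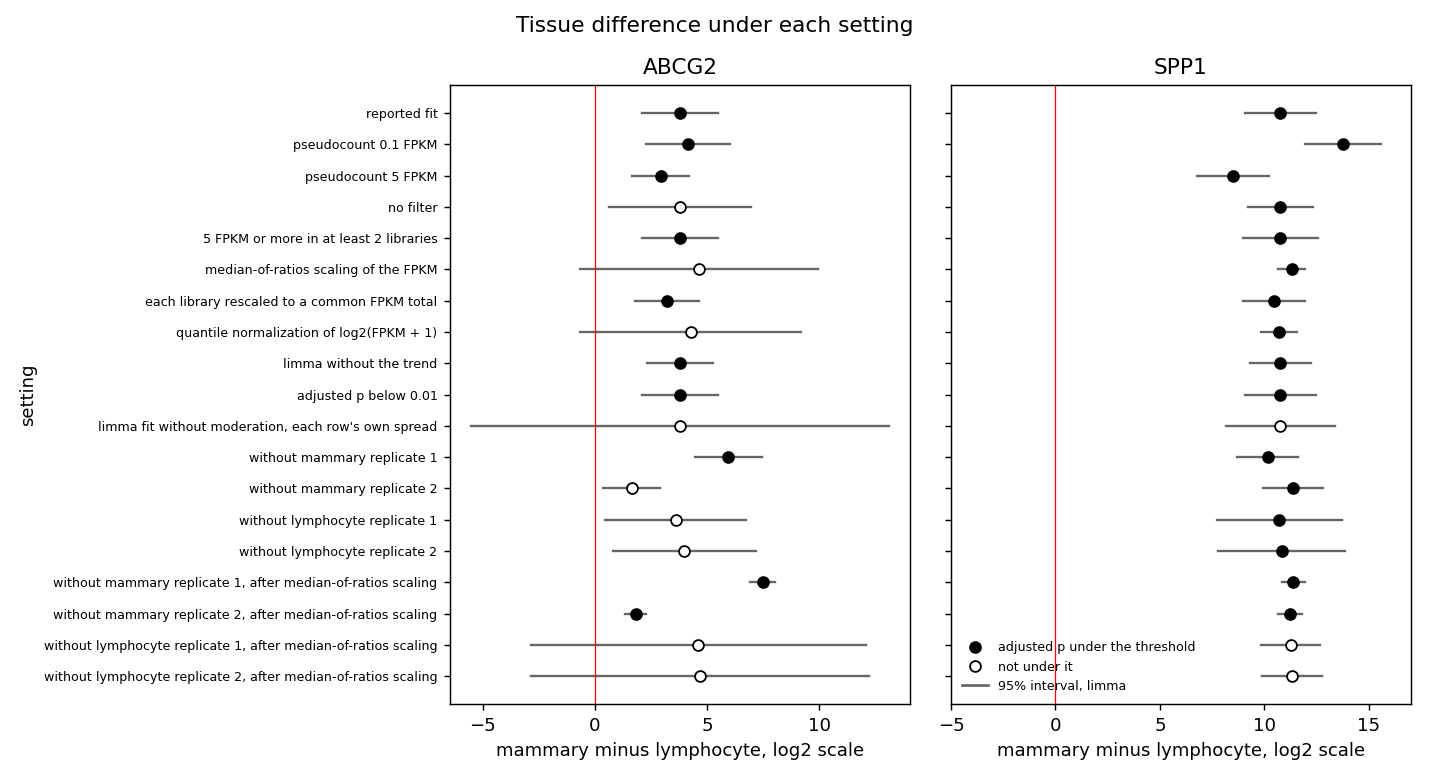
Tissue difference of each gene (mammary minus lymphocyte, log2 scale, horizontal axis) in the reported fit and 18 alternative settings (vertical axis), with 95% intervals; filled points passed the adjusted p threshold and open points did not. All points lie to the right of 0 for both genes. Some alternatives leave out a library, so the spread within a tissue is missing. Filled points of those fits are not taken as support.

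The order of the neighbours within a library was reversed between the tissues. In mammary replicates 1 and 2 the FPKM of SPP1 was 272 and 5.42 times that of ABCG2. In lymphocyte replicate 2 the FPKM of ABCG2 was 43.4 times that of SPP1, and in lymphocyte replicate 1 ABCG2 was present and SPP1 was listed at 0. As log2 of SPP1 over ABCG2 with 1 FPKM added to each, the mammary libraries stood at 7.95 and 2.43 and the lymphocyte libraries at -1.65 and -1.94. SPP1 was above ABCG2 in both mammary libraries and below it in both lymphocyte libraries. The mean log2 ratio differed by 6.99 between the tissues, with SDs of 3.90 in mammary tissue and 0.20 in lymphocytes (n = 2 each). That value rested on the spread between the mammary libraries: it was 4.23 without mammary replicate 1 and 9.75 without mammary replicate 2. It also moved with the pseudocount, to 9.61 with 0.1 FPKM and 5.56 with 5 FPKM. The sign of the ratio in a library cannot change with the pseudocount. The smallest p that a two-sided exact permutation test can give for 2 against 2 libraries is 0.33, so this test can say nothing about the difference and the ratios are given as a description.

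The pattern of each gene over the 4 libraries was compared with that of the other gene and of all tested rows. After each row was centred on its own mean, ABCG2 and SPP1 differed by a root mean square of 4.00 on the log2(FPKM + 1) scale, and the place of each gene in the other's order of likeness differed. The rows were centred but not scaled, so this distance counts the size of a tissue difference as well as its pattern. Seen from SPP1, whose difference was large, 404 tested rows (3.28%) were closer than ABCG2. Seen from ABCG2, 11885 rows (96.5%) were closer than SPP1. SPP1 had 1 row within 1 of it, ENSBTAG00000001292, at a distance of 0.48. Mammary replicates 1 and 2 had 1782 and 630.4 FPKM of that row, and lymphocyte replicates 1 and 2 had 0.0916 and 0.230 FPKM. ABCG2 had 44 rows within 1 of it, the nearest being ENSBTAG00000000945 at 0.21. This row had 3.31 and 79.8 FPKM in mammary replicates 1 and 2, and 0.199 and 0.119 FPKM in lymphocyte replicates 1 and 2. Both rows were chosen for their likeness, so their values are a description with no test, and neither identifier is paired with a gene name in the table.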

How the data were processed

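The authors deposited 1 table of FPKM per Ensembl identifier and library. Per the submitters' processing notes, Trimmomatic 0.39, STAR, Cufflinks and the assembly UMD3.1 were used; how each was run, the annotation release and the use of strand are not given in those notes. Each of the 4 value columns matched 1 sample title. Groups follow the tissue label, and replicates were numbered in accession order. Below 0.08 FPKM, at most 21.4% of ratios between replicates fell on whole-fragment steps (tolerance 0.015, log2), so no reads were recovered and count tests were left out.

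Values were analysed as log2(FPKM + 1). All 12311 rows that reached 1 FPKM in at least 2 libraries were fitted with tissue as the only term by limma 3.58.1 (R 4.3.3; two-sided, mean-variance trend, Benjamini-Hochberg adjustment, threshold 0.05). The fit was tested on simulated data with the same spread in every row. That check does not cover rows whose own spread is larger, such as ABCG2. The tested rows and scaling factors were kept when a library was left out. Both genes are described, and for each the 1 row with the most similar pattern. The genes and tests were chosen with earlier results of these data known. Planned lists of marker and pathway genes could not be matched to rows and were not tested. No sequence or position is reported.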

Additional observations from a re-analysis of the deposited data

How the results depend on the processing

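Both genes kept their direction under all 18 alternatives run. Only the alternatives that rescaled or normalized the libraries could have changed it, because the libraries of the tissues did not overlap as deposited. The SPP1 difference ranged from 8.49 to 13.75, with limma adjusted p-values from 6.4e-45 to 0.31, and that of ABCG2 from 1.63 to 7.48, with limma adjusted p-values from 1.2e-05 to 0.43. The ends of the SPP1 range came from adding 5 FPKM and 0.1 FPKM before the log. SPP1 lost its call with each row's own spread (10.77, an alternative added after seeing the data) and, after median-of-ratios scaling, without lymphocyte replicate 1 (11.27) or 2 (11.33). ABCG2 lost it with no filter (3.79, limma adjusted p = 0.17), median-of-ratios scaling (4.65), quantile normalization (4.27, limma adjusted p = 0.15) and its own spread (3.79). Leaving out each library, with or without that scaling, ABCG2 ranged from 1.63 to 7.48 (1.63 to 5.94 as deposited) and SPP1 from 10.17 to 11.39; ABCG2 was not called as deposited without mammary replicate 2 (1.63) or either lymphocyte library, nor after scaling without lymphocyte replicate 1 (4.61) or 2 (4.68). The cause of these losses was not tested. The number of rows called was 2363 as reported, 5 with no filter, 1370 with a filter at 5 FPKM, 6718 after rescaling to a common total and 4 with each row's own spread. Leaving out each library gave 102 to 3828 calls as deposited. After median-of-ratios scaling it gave 1488 without mammary replicate 2 and 0 without lymphocyte replicate 1 or 2, where limma had 2807 and 2995 rows at an unadjusted p under 0.05. No paired analysis was possible because the labels carry no shared replicate numbers. Depth is unknown, so how far SPP1 in lymphocytes lies from 0 cannot be judged.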
